A study of Rattus norvegicus with 2 samples.

Results

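The genes described are 9 members of 2 channel families, the HCN pacemaker channels (Hcn2, Hcn3 and Hcn4) and the inward rectifier potassium channels (Kcnj3, Kcnj5, Kcnj6, Kcnj9, Kcnj10 and Kcnj11), in the sympathetic neurons of the rat stellate ganglion. They were taken by gene symbol, and all 9 have a line among the 25395 genes with a unique name. Cells of dissociated stellate ganglia, the ganglia that supply most of the sympathetic nerves of the heart, were sequenced in droplets, with 1 library from male normotensive Wistar rats and 1 library from male prehypertensive SHRs (spontaneously hypertensive rats), both 5 to 6 weeks old. How many animals went into each library is not given in the sources used here. The SHR is an inbred strain selected for high blood pressure, so a difference between these 2 libraries cannot be told apart from a difference of genetic background or of a single preparation. For each strain the values are averages over the neurons that the authors selected as sympathetic, with the neurons that contain neuropeptide Y and those that lack it in the same average. With 1 library per strain there is no replicate error, and no test between the strains was made.

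HCN channels open when the membrane hyperpolarizes, pass a mixed sodium and potassium inward current, and open more readily when cyclic AMP binds to them, which makes them pacemaker channels in the sinoatrial node and in rhythmically firing neurons. Inward rectifier (Kir) channels pass potassium near and below the resting potential and so hold a neuron away from its firing threshold. Among them, the Kir3 or GIRK channels open when a receptor coupled to Gi or Go releases G protein beta gamma subunits, the Kir6 channels are the pore of the ATP-sensitive potassium (KATP) channel, and Kir4.1, encoded by Kcnj10, is known from glia, where it takes up potassium.

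The level of a gene is given as its mean number of counts per 10000 counts of a neuron. The 3′ chemistry counts each captured transcript once whatever its length, so these means were compared between genes without division by gene length. They depend on how well the annotation covers the 3′ end of each gene. The number of neurons and their depth are not given in the sources used here, but the lowest values carry a hint of both. A gene counted once in 1 neuron adds the same amount to its mean as any other gene counted once in that neuron, so such genes share 1 value. In Wistar 197 values and in SHR 105 values were listed identically for at least 3 genes, and from them 1 count corresponded on average to a mean of about 0.000331 in Wistar and 0.000900 in SHR. Approximate counts below are means divided by these amounts, for scale only. They carry no interval, and they cover neither the spread between neurons nor that between animals. A count of 0 allows up to 3 counts, a mean of up to about 0.000994 in Wistar and 0.00270 in SHR.

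The neuron label was checked against markers. All 12 sympathetic neuron markers were above 0 in both libraries, led by the norepinephrine transporter gene Slc6a2, tyrosine hydroxylase (Th) and Dbh, and they summed to 65.2 per 10000 counts in Wistar and 55.3 in SHR. Markers of other cell types were also listed, and most were lower in SHR: 10 of 12 glial, 6 of 6 fibroblast, 5 of 6 immune, 5 of 6 endothelial and 5 of 7 pericyte markers above 0 in either library. Of the 12 sympathetic neuron markers, 10 were lower in SHR as well. Over all genes, 65.6% of those averaging at least 0.1 per 10000 and 73.7% of those averaging 0.01 to 0.1 were lower. The 12 satellite glia and Schwann cell markers summed to 9.23 in Wistar and 3.62 in SHR, the 6 fibroblast markers to 1.84 and 0.353, the 7 immune markers to 0.359 and 0.0658, the 6 endothelial markers with a line to 0.117 and 0.0520, and the 7 pericyte and smooth muscle markers to 0.125 and 0.0711. Of these lists, only the T cell gene Cd3e was at 0 in both libraries, the glial glutamate transporter gene Slc1a3 was at 0 in Wistar, and the pericyte gene Rgs5 was at 0 in SHR. The part of these cells, or of their free RNA, in the differences below was not tested.

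The 3 HCN genes were the most abundant of the 9 members in both libraries, and each was lower in SHR, although the small difference of Hcn2 turned to 0.033 on the log2 scale when the median log2 difference of the genes averaging at least 0.1 per 10000 was set to 0. With the median ratio of those genes set to 1, the Hcn2 ratio of 0.831 became 0.963. Over all genes, 65.6% of the 7621 averaging at least 0.1 per 10000 and 73.7% of the 4011 averaging 0.01 to 0.1 were lower in SHR. Together the HCN genes had a mean of 0.884 per 10000 counts in Wistar and 0.550 in SHR, which is 0.623 times the Wistar level. This ratio became 0.721 with the median ratio of the genes averaging at least 0.1 per 10000 set to 1. The 6 Kir members summed to far less, at 0.0950 per 10000 counts in Wistar and 0.0936 in SHR, a ratio of 0.986 that became 1.01 with mitochondrial and ribosomal protein genes left out of the total and 1.14 with the median ratio of the genes averaging at least 0.1 per 10000 set to 1. Within the Kir members the makeup differed more than the sum. Kcnj9 made up 38.7% of their counts in Wistar and 19.0% in SHR, and Kcnj11 made up 36.4% and 56.2%.

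**Figure D1:**
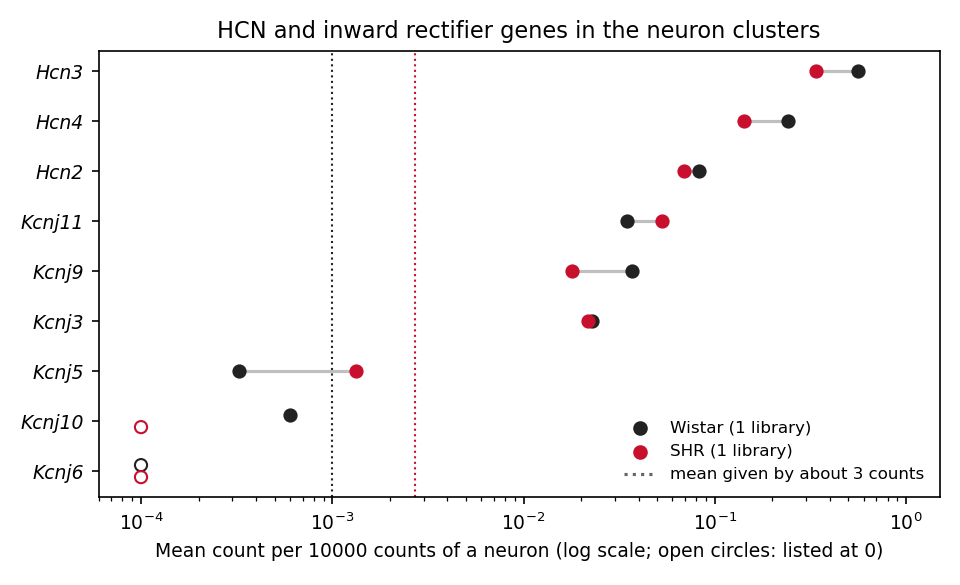
Mean count per 10000 of each of the 9 genes on a log axis, with 1 filled point per library, Wistar in black and SHR in red, open circles for genes listed at 0, and dotted lines at the mean that about 3 counts give in each library. Hcn3, Hcn4 and Hcn2 lie highest, Kcnj11 is the member above the dotted lines with the SHR point to the right, and Kcnj5, Kcnj10 and Kcnj6 lie at or to the left of the line of their library.

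Hcn3 encodes a slowly activating HCN subunit with a weak response to cyclic AMP. Its mean was 0.558 per 10000 counts in Wistar and 0.339 in SHR, or about 1684 and 377 counts, and it ranked 3112 and 3915 among all genes. The SHR level was 1.65-fold lower, with a difference of -0.22 in the log2 of 1 plus the mean, the scale used for all differences below (SHR minus Wistar). Hcn4, the main pacemaker subunit of the sinoatrial node, had a mean of 0.243 in Wistar and 0.142 in SHR, or about 732 and 158 counts. It was 1.71-fold lower in SHR, with a log2 difference of -0.12. Hcn2, a subunit with a strong response to cyclic AMP, had a mean of 0.0832 in Wistar and 0.0691 in SHR, or about 251 and 77 counts, and so was 1.20-fold lower with a log2 difference of -0.019.

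The order of the HCN genes was the same in both libraries. Hcn3 had 2.30 times the mean of Hcn4 in Wistar and 2.39 times in SHR, while Hcn4 had 2.92 and 2.06 times the mean of Hcn2. Of the summed counts of these 3 genes, Hcn3 made up 63.2% in Wistar and 61.6% in SHR, Hcn4 27.4% and 25.8%, and Hcn2 9.41% and 12.6%. Hcn3 and Hcn4 thus made up most of the sum in both strains. In the GRCr8 assembly Hcn3 overlaps Pklr, a pyruvate kinase gene, whose own mean was 0.00777 in Wistar and 0.000505 in SHR. How reads of the shared stretch were counted is not given in the sources used here.

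Proteins that bind HCN channels were scarce. Pex5l encodes TRIP8b, which governs the trafficking and cyclic AMP response of HCN channels, and its mean was 0.0518 per 10000 counts in Wistar and 0.0440 in SHR. The means of Kcne2, a small accessory subunit of several channels, were 0.0148 and 0.0125. Mrvi1, which encodes a regulator of Hcn4 channels, was at 0.00757 and 0.00483. Its relative Lrmp was at the level of about 1 count in each library, so its 2 values hold no comparison. Of these 4 genes 3 were lower in SHR, beside 73.7% over all genes averaging 0.01 to 0.1 per 10000. Their sum was 0.0621 in SHR against 0.0745 in Wistar. That ratio of 0.834 became 0.966 with the median ratio of the genes averaging at least 0.1 per 10000 set to 1.

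**Figure D2:**
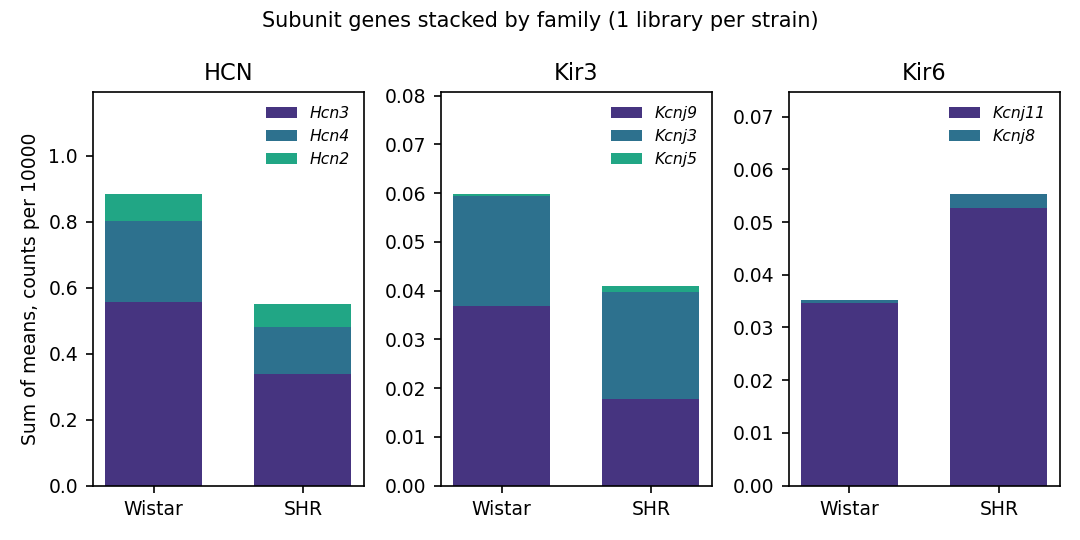
Stacked bars of the mean count per 10000 of the 3 HCN members, the Kir3 genes and the Kir6 genes in the Wistar and SHR library, each panel with its own linear axis from 0. The HCN stack is lower in SHR with similar shares, Kcnj9 makes up less of the Kir3 stack in SHR, and the Kir6 stack is almost all Kcnj11 and higher in SHR.

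Of the 4 Kir3 genes, Kcnj9 and Kcnj3 made up nearly all counts. Kcnj9 encodes GIRK3, and its mean was 0.0368 per 10000 counts in Wistar and 0.0178 in SHR, or about 111 and 20 counts. It was 2.06-fold lower in SHR, the lowest ratio of the members above the level of 3 counts, with a log2 difference of -0.027 that became 0.026 with the median log2 difference of all genes averaging at least 0.1 set to 0. That sign change arises because log2 differences with 1 added to such low means are near 0. With the median ratio of the same genes set to 1, the Kcnj9 ratio of 0.484 became 0.561 and stayed lower in SHR. Kcnj3 encodes GIRK1, which depends on a partner subunit to reach the cell surface, and its mean was 0.0227 in Wistar and 0.0218 in SHR, or about 68 and 24 counts. Its ratio of 0.962 (log2 difference -0.0012) became 1.11 with the median ratio of the genes averaging at least 0.1 per 10000 set to 1, so it has no settled direction. By mean, Kcnj9 lay above Kcnj3 in Wistar and below it in SHR. Kcnj3 had 0.616 times the mean of Kcnj9 in Wistar and 1.22 times in SHR. The order in SHR rests on about 20 counts of Kcnj9 against 24 of Kcnj3, so it is not settled. As a share of Kir3 counts, Kcnj9 was 61.5% in Wistar and 43.5% in SHR.

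The other Kir3 subunits were hardly detected. Kcnj5 encodes GIRK4, the partner of GIRK1 in the atrium, and was listed at 0.000327 per 10000 counts in Wistar, a value that 5 genes share exactly and that 1 count in 1 neuron would give. In SHR it was listed at 0.00134, also under the mean that 3 counts give, so no fold is stated. Kcnj6 encodes GIRK2, the common partner of GIRK1 in central neurons, and was listed at 0 in both libraries. Kcnj6 was thus not detected, and by counting alone a 0 allows a mean of up to about 0.000994 in Wistar and 0.00270 in SHR. How well the annotation covers the 3′ end of Kcnj6 was not tested.

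Where the RefSeq promoter table has an entry, 5 of the 9 genes matched (Hcn2, Kcnj5, Kcnj6, Kcnj9 and Kcnj10). Hcn3, Hcn4, Kcnj3 and Kcnj11 have none there. The promoters of 2 detected genes, Hcn2 and Kcnj9, and of the 2 Kir3 genes at or near 0, Kcnj5 and Kcnj6, are shown so that detected and undetected members can be read side by side. Each runs from 250 bases before to 50 bases after the annotated start, in the GRCr8 assembly, which is not the Rnor_6.0 build of the expression values, and each is on the minus strand and printed 5′ to 3′ along the gene. The positions are chr7:10639408-10639707 for Hcn2, chr13:87320244-87320543 for Kcnj9, chr8:39011047-39011346 for Kcnj5 and chr11:47778299-47778598 for Kcnj6. Capitals mark the GC box, GGGCGG or its reverse complement CCGCCC, which 33.1% of all 33469 promoters of this length hold.
Hcn2: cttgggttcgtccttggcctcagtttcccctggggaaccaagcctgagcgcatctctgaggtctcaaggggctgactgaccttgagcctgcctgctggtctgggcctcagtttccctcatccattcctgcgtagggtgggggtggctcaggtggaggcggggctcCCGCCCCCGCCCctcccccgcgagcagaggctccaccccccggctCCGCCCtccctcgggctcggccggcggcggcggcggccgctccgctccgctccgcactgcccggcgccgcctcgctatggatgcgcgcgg
Kcnj9: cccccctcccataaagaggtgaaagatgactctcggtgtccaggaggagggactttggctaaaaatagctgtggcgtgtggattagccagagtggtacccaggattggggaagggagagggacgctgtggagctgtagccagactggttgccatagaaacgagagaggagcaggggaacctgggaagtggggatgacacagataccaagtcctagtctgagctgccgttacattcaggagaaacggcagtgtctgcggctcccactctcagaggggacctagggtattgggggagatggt
Kcnj5: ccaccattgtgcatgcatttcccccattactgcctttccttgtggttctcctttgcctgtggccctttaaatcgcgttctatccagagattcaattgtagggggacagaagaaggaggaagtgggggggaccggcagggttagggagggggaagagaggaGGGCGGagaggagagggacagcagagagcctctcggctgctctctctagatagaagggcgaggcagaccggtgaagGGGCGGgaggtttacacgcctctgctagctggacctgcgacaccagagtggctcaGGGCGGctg
Kcnj6: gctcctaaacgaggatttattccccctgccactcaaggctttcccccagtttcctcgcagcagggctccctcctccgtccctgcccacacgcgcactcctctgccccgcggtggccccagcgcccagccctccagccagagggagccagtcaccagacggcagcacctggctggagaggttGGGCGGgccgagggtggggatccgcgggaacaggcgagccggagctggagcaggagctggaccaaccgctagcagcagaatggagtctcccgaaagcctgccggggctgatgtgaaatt
The Hcn2 promoter had 3 GC boxes, 28 CG pairs and a GC content of 72.7%, above that of 94.8% of all promoters. The Kcnj9 promoter had no GC box, 7 CG pairs and a GC content of 56.0%. Of the barely detected genes, Kcnj5 had 3 GC boxes and 59.0% GC and Kcnj6 had 1 GC box and 66.7% GC, between Kcnj9 and Hcn2 in GC content. None of the 5 matched promoters held TATAAA, found in 14.2% of all promoters, or TGACG, the core of the cyclic AMP response element, found in 21.2%, with both strands read. These are matches of letters in 1 window, and no binding was measured.

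Kcnj9 lies next to Kcnj10 in GRCr8, and it overlaps Igsf8, a cell adhesion gene with a mean of 0.621 per 10000 counts in Wistar and 0.700 in SHR. Kcnj10 itself was listed at 0.000598 in Wistar, about 2 counts, and at 0 in SHR. Both values are under the mean that 3 counts give, so no fold is stated. Most glial markers lay well above these levels in the same averages, except Slc1a3, at 0 in Wistar and about 1 count in SHR, and Gja1, at about 2 counts in SHR. The high ones included Apoe, with 6.24 in Wistar and 2.23 in SHR, and the myelin enzyme gene Cnp, with 0.545 and 0.421. Kcnj16, whose product Kir5.1 pairs with Kir4.1, was at 0 in Wistar and at 0.00135 in SHR, a value that 17 genes share and that 1 count in 1 neuron would give.

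Kcnj11 encodes Kir6.2, the pore of the neuronal and pancreatic KATP channel, and was the member above the level of 3 counts that was higher in SHR. Its mean was 0.0346 per 10000 counts in Wistar and 0.0526 in SHR, or about 104 and 58 counts, a 1.52-fold higher level with a log2 difference of 0.025. Its ratio lay between 1.52 and 1.76 over the scalings tried. In Wistar its level was close to that of Kcnj9, which had 1.06 times its mean, and in SHR Kcnj9 had 0.339 times its mean. Kcnj8, the Kir6.1 gene of vascular KATP channels, was at 0.000646 in Wistar and 0.00266 in SHR, so that Kcnj11 made up 98.2% and 95.2% of Kir6 counts. Both Kcnj8 values are under the mean that 3 counts give, so no fold is stated and the 2 shares hold no comparison.

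Sulfonylurea receptors join Kir6 subunits in the KATP channel, and the more abundant of the pair was lower in SHR while the scarce one was higher. Abcc8, the SUR1 gene and the direct neighbour of Kcnj11 in GRCr8, had a mean of 0.0735 per 10000 counts in Wistar and 0.0455 in SHR, or about 222 and 51 counts, and was 1.61-fold lower in SHR. Over all genes averaging 0.01 to 0.1, 49.0% were lower by at least 1.5-fold. The Abcc8 ratio of 0.620 became 0.718 with the median ratio of the genes averaging at least 0.1 per 10000 set to 1. Abcc9, the SUR2 gene, was at 0.00252 in Wistar and 0.0137 in SHR, higher in SHR like Kcnj11 but on only about 8 and 15 counts. Abcc8 thus had 2.12 times the mean of Kcnj11 in Wistar and 0.865 times in SHR. Abcc8 was the leading sulfonylurea receptor gene in both libraries, with 29.1 and 3.33 times the mean of Abcc9.

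Among the Kir genes outside the 9 members, Kcnj12 stood highest. It encodes Kir2.2, a strong inward rectifier, and its mean was 0.159 per 10000 counts in Wistar and 0.261 in SHR, 1.64-fold higher, which is above every Kir member in both libraries. Kcnj14, the Kir2.4 gene, was at 0.0151 in Wistar and 0.00313 in SHR, or about 46 and 3 counts. Kcnj1, Kcnj2, Kcnj4, Kcnj13 and Kcnj15 were listed at 0 in both libraries, so these 5 Kir genes were not detected. How well the annotation covers their 3′ ends was not tested. Kcnj12 and Kcnj11 kept a similar proportion to each other, at 4.60 in Wistar and 4.96 in SHR.

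The 6 members that average at least 0.01 per 10000 were set beside all genes of a like level. Hcn3 and Hcn4 average at least 0.1, and both were lower in SHR, as most genes of that level were. Both were also lower by at least 1.5-fold, as were 26.5% of those genes, while 5.22% were higher by at least 1.5-fold. Hcn2, Kcnj3, Kcnj9 and Kcnj11 average between 0.01 and 0.1, and 3 of the 4 were lower in SHR, a share close to that over all genes of the range. In the range 1 of the 4, Kcnj9, was lower by at least 1.5-fold against 49.0% of the 3983 genes with a ratio, and 1 of the 4, Kcnj11, was higher by as much against 10.3%. The median ratio of SHR to Wistar was 0.831 for the 7 members above 0 in both libraries, 0.863 for the genes averaging at least 0.1 and 0.680 for those between 0.01 and 0.1. The 7 include Kcnj5, at about 1 count in each library, whose ratio holds no comparison. Its ratio is the highest of the 7, so the median without it would be lower. Counting Kcnj5 with its 1 or so counts, 3 members were lower and 2 higher by at least 1.5-fold. With the median ratio of the genes averaging at least 0.1 set to 1, a shift of 0.21 on the log2 scale, 1 was lower (Kcnj9) and 2 were higher, since Hcn3 came to a ratio of 0.704 and Hcn4 to 0.679. The shares over all genes given above are for the values as deposited. They were not computed for this scaling, so these last counts have no background beside them.

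**Figure D3:**
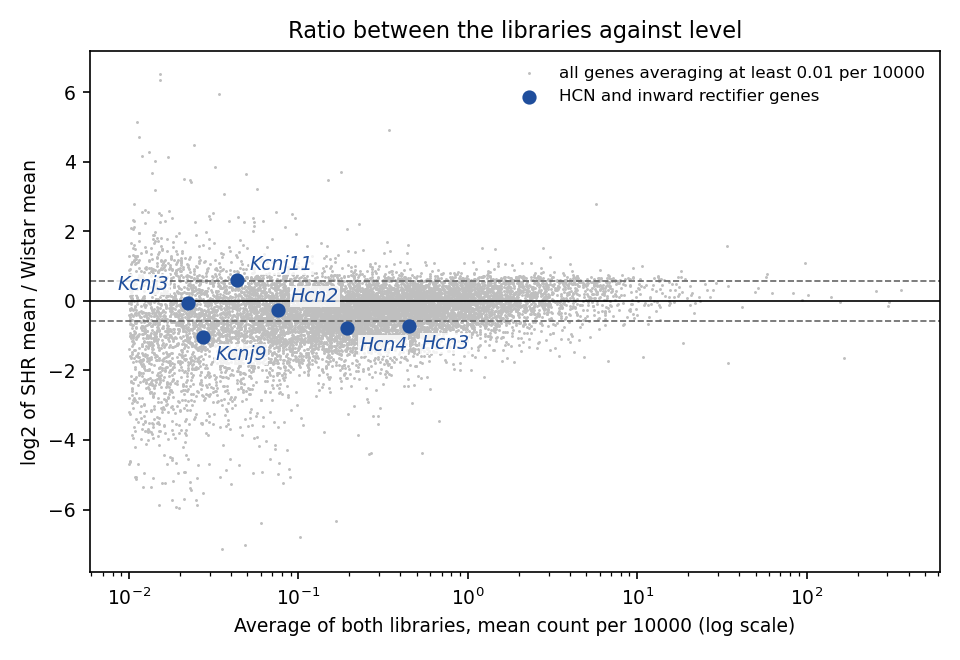
Log2 of the SHR mean over the Wistar mean against the average of both libraries on a log axis, for all genes above 0 in both and averaging at least 0.01 per 10000 (grey) and the 6 members of that level (blue), with dashed lines at a 1.5-fold difference. Hcn3, Hcn4 and Kcnj9 lie below the lower dashed line, Kcnj11 lies on the upper one, and Hcn2 and Kcnj3 lie between the lines, all within the grey cloud.

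Gene length moved with the ratio across all genes, and the members lie at different lengths. Of the genes averaging at least 0.1 per 10000, 95.6% could be given a length, and they were put into 10 groups by the span of the gene in GRCr8. Kcnj11 has a span of the shortest group, in which 27.2% of genes were lower in SHR, and Kcnj9 of the second shortest, in which 47.3% were. Hcn2 and Hcn3 fall in the fifth group (66.8% lower), Hcn4 in the seventh (76.1%) and Kcnj3 in the longest (85.6%). These groups hold genes averaging at least 0.1, a level above that of Hcn2, Kcnj3, Kcnj9 and Kcnj11, so for these 4 they are not a comparison at like level. The part of gene length in these ratios was not tested.

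**Figure D4:**
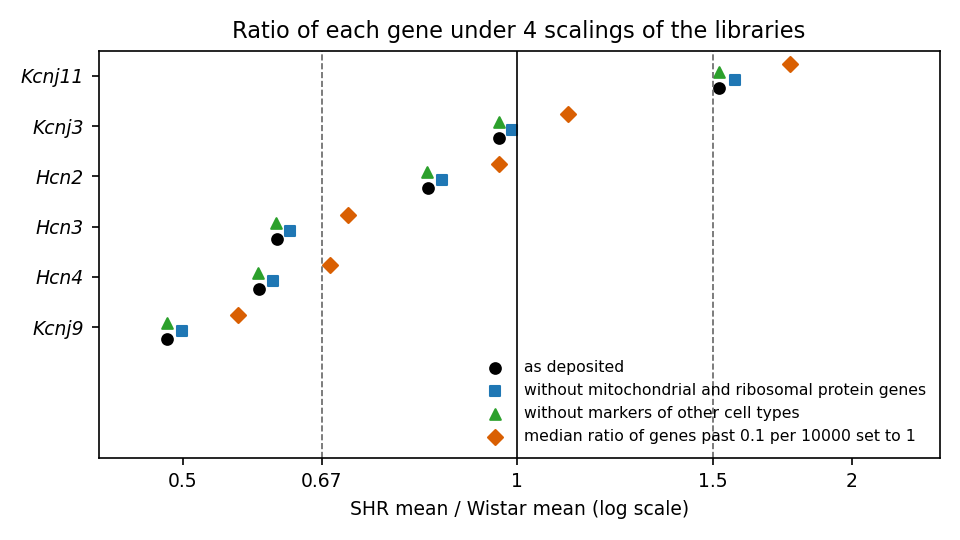
Ratio of the SHR mean to the Wistar mean on a log axis for the 6 members averaging at least 0.01 per 10000, under 4 scalings of the libraries, with dashed lines at a 1.5-fold difference in either direction. Kcnj9 stays to the left of the lower line and Kcnj11 to the right of the upper line under all 4, Hcn3 and Hcn4 cross the lower line when the median ratio is set to 1, and Kcnj3 crosses 1 there.

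GIRK channels are opened through Gi and Go proteins, whose genes summed to far more than the channel genes. The 5 Gi/o alpha genes summed to 4.51 per 10000 counts in Wistar and 5.06 in SHR, led by Gnai2 (2.12 and 2.36), Gnao1 (1.63 and 1.91) and Gnai3 (0.661 and 0.671). The 15 G beta and gamma genes summed to 21.7 in Wistar and 30.1 in SHR. Of these, 5 were lower in SHR, beside 65.6% and 73.7% over all genes of the higher and lower range of levels, and 10 were higher. By at least 1.5-fold 4 were lower (Gnb3, Gng7, Gng11 and Gng13, of which Gng11 and Gng13 were at about 2 and 1 counts in SHR) and 2 were higher (Gnb1 and Gng3). Over all genes of the higher and lower range, 26.5% and 49.0% were lower by as much, and 5.22% and 10.3% were higher. Gng7, Gng11 and Gng13 average under 0.01 per 10000, outside both ranges. Among the most abundant, Gng2 was at 5.33 and 7.32, the G beta gene Gnb2 at 5.46 and 7.12, and Gng3 at 4.69 and 7.16. In Wistar and SHR alike, then, the summed transcripts of the 15 G beta and gamma genes exceeded those of Kcnj3 and Kcnj9 many times over. These sums cover unequal numbers of genes, so they do not measure the G protein available to each channel.

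Of 13 genes of receptors that act through these G proteins, 10 were lower in SHR, near the 65.6% and 73.7% over all genes of the higher and lower range of levels. Among these 10, Oprm1 and Chrm4 were at about 3 counts or fewer in each library and hold no comparison. Npy2r, at 0.00196 in Wistar and 0 in SHR, holds none either, since a 0 in SHR allows a mean of up to about 0.00270. Counting Oprm1, 5 of the 11 genes with a ratio were lower by at least 1.5-fold, and none was higher by as much. Over all genes with a ratio, 26.5% of the higher and 49.0% of the lower range were lower by as much. Gabbr1, a GABA B receptor subunit gene, had a mean of 5.06 per 10000 counts in Wistar and 3.81 in SHR, and its partner Gabbr2 was at 0.951 and 0.463. Chrm2, the muscarinic M2 receptor gene, was at 0.571 and 0.244, and thus 2.35-fold lower in SHR. Regulators of G protein signaling, which speed the closing of GIRK channels, and the sorting protein gene Snx27, which acts on GIRK subunits, varied in their ratios. The most abundant had ratios near 1, with Rgs4 at 5.30 in Wistar and 4.91 in SHR, Rgs7 at 1.81 and 1.80, and Snx27 at 1.02 and 0.918. The scarcer Rgs6 was at 0.316 and 0.185 and Rgs8 at 0.0650 and 0.0290, so these 2, named after their values were seen, were 1.71-fold and 2.25-fold lower in SHR. The 6 genes of that list with a line were all lower in SHR as deposited, and their sum, at 0.920 times the Wistar level, became 1.07 with the median ratio of the genes averaging at least 0.1 set to 1.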

How the data were processed

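Cells of dissociated stellate ganglia were sequenced with 10x Genomics 3′ v3 chemistry in 1 library per strain. Per the submitters' processing notes, Cell Ranger 3.0.2 and Seurat 3 were used with Rnor_6.0. Filters on cells, the treatment of doublets and the number of neurons are not given in the sources used here. The authors deposited 1 natural log value per gene and library for the selected neurons, ln(1 + mean per 10000). The deposited values were converted back with the exponential, and both libraries then sum to 10000. Of 25399 lines, 4 whose gene name occurs more than once were dropped. The authors' own comparison (p-values, fold changes and shares of cells) was not used.

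Ratios, differences of log2(mean + 1) and counts past a ratio of 1.5 were computed with Python 3.11.15, NumPy 2.4.6 and pandas 2.3.3, and the code was tested on simulated cells. A fixed rule of size stands in for a test. Alternatives were other pseudocounts, scalings, ratios and minimum levels. The named genes are the members, the further Kir, HCN partner and sulfonylurea receptor genes, and the 3 most abundant genes of each other list, with marker lists given mainly by sums. Some genes that this rule would name are not reported here. Overlapping and neighbouring genes, single markers at or near 0 and further members of the G protein and receptor lists were named after their values were seen. Members and lists were chosen with earlier results of these data known. Repeated values, motifs and approximate counts were looked at after the values were seen. Lengths, neighbours and promoters are from RefSeq (GRCr8).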

Additional observations from a re-analysis of the deposited data

How the results depend on the processing

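No paired analysis was possible because there is a single library of each strain, and for the same reason no replicate could be left out. Of the 9 members, 6 were lower in SHR, among them Kcnj10, at about 2 counts in Wistar and 0 in SHR. Over all genes, 65.6% of those averaging at least 0.1 per 10000 and 73.7% of those averaging 0.01 to 0.1 were lower. The count of 6 fell to 2 with a minimum of 0.1 per 10000, where only 2 members are left. It also fell to 2 after centring on the median log2 difference of the genes of at least that level. The step adds 0.052 to every gene by construction. That centring turned the differences of Hcn2 (0.033), Kcnj3 (0.051), Kcnj9 (0.026) and Kcnj10 (0.051) to positive ones, because their log2 differences with 1 added to such low means are near 0. The median log2 difference of the 8 members above 0 in either library, -0.010, became -0.063 and -0.16 with pseudocounts of 0.1 and 0.01, -0.17 with a minimum of 0.1 per 10000 and 0.042 with that centring. The 3 members lower by at least 1.5-fold became 1 with a ratio of 2 and 1 with the median ratio set to 1. The 2 members higher by at least 1.5-fold became 1 with a ratio of 2, 1 with a minimum of 0.01 per 10000 and 0 with a minimum of 0.1. Shares over all genes were not computed for a ratio of 2 or with the median ratio set to 1. Totals taken without ribosomal protein and mitochondrial genes, or without the other cell types' markers, moved no member's log2 difference by 0.05 or more. These steps multiply every ratio of SHR to Wistar by 1.029 and 0.999, so no member could move that far. They do not test the part of other cell types in the ratios. With values shared by at least 5 genes in place of 3, a choice made after the data were seen, 1 count corresponded to 0.000285 in Wistar and 0.000888 in SHR, so the approximate counts would be somewhat higher. Kcnj5, Kcnj6 and Kcnj10 lie at or under about 3 counts in each library, too few for a comparison between the libraries.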

Other observations

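Kir channels need the membrane lipid PIP2 to stay active, and 5 genes of its synthesis were listed. All 5 were lower in SHR as deposited, 3 of them by at least 1.5-fold, beside 65.6% lower and 26.5% lower by as much over all genes averaging at least 0.1 per 10000, and 73.7% and 49.0% over those between 0.01 and 0.1. They summed to 3.02 per 10000 in Wistar and 2.27 in SHR. The most abundant was Pip5k1c, which encodes a phosphatidylinositol 4-phosphate 5-kinase of synapses, with a mean of 1.38 in Wistar and 1.17 in SHR. Pi4ka, the plasma membrane phosphatidylinositol 4-kinase gene, was at 0.928 and 0.702, and Pip5k1a at 0.576 and 0.320, which is 1.80-fold lower in SHR. Pi4kb, at 0.0942 and 0.0597, and Pip5k1b, at 0.0411 and 0.0238, lay below Kcnj12 in both libraries, and these 2 are named after their values were seen. With the median ratio of the genes averaging at least 0.1 per 10000 set to 1, the ratio of the sums, 0.752, became 0.871. As for the channel genes, there is 1 library per strain and no replicate error.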
